A study of Mus musculus with 105 samples.

Results

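Aminoacyl-tRNA synthetases were followed through the last steps of mouse oocyte maturation, in ribosome footprints, mRNA and poly(A) tails. The genes were chosen by name: a capital letter or Ep, then "ars", with or without a final 1 or 2. This gave 34 of the 20756 genes in the tables of footprint and mRNA levels, 17 with symbols ending in 2, which encode mitochondrial enzymes, and 17 cytosolic ones. Of these, 33 were named in each of the 3 tables, and Hars2 was not in the table of tail lengths. Eprs, Farsa and Farsb fall outside the pattern and are described with the partner genes below.

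Each synthetase joins one amino acid to its matching tRNA and so supplies the ribosome with charged tRNA. The letter in the gene name is the amino acid, as in Sars for serine. Several cytosolic enzymes (here Lars, Iars, Mars, Qars, Kars, Rars and Dars) are known to sit together in the multi-synthetase complex, held by the scaffold proteins AIMP1, AIMP2 and AIMP3. Mitochondria use their own set to translate the mitochondrial genome, except that Gars and Kars each serve both compartments from 1 gene. Full-grown oocytes (FGO) are arrested in meiotic prophase and store maternal mRNA. During maturation to metaphase II (MII) transcription is silent, so mRNA levels move by decay and translation by the use of stored mRNA. BTG4 is an adaptor that brings the CCR4-NOT deadenylase to maternal mRNAs as they decay.

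The oocytes came from 5- or 8-week-old C57BL/6 females injected with PMSG and hCG at 5 IU each, and the labels do not tie an age to a group. Ribosome footprints were measured in 18 single wild-type FGO and 20 single wild-type MII oocytes. MII oocytes labelled Btg4 Het and Btg4 KO gave 3 and 3 footprint libraries and 2 and 2 polyA mRNA libraries, so the controls carry 1 mutated copy. Tail lengths came from 1 wild-type FGO library labelled SN, 1 wild-type MII, 1 Btg4 Het MII and 2 Btg4 KO MII libraries. The labels name no animals, no oocyte number per library and no design of the Btg4 allele.

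The MII oocytes were sequenced less deeply than the FGO. Relative to the deepest single-oocyte library, depth was 0.232 to 1 in FGO (median 0.479) and 0.0933 to 0.365 in MII (median 0.126). It was read from the most common ratio between libraries in the values of the same gene. A gene listed at 0 in an MII oocyte may therefore be absent or below what this lower depth detects. MII oocytes 2 and 4 stood apart: across 8818 genes their median rank correlation was 0.517 and 0.538 with FGO against 0.498 and 0.462 with MII oocytes, while the other 18 MII oocytes had 0.164 to 0.313 with FGO and 0.528 to 0.622 with MII. Oocyte markers were present in every group, with none of 11 at 0. Follicle cell markers summed to 1.04 to 113.6 FPKM per FGO and 64.4 to 213.2 per MII oocyte (13 measured, with Has2 at 0 in both stages and Fst, Fshr and Krt8 at 0 in MII). Serpine2, one of them, had a mean of 4.31 in FGO and 120.1 in MII, while Inha and Gja1 had 10.6 and 13.0 in FGO and 0.238 and 1.09 in MII. Blood and immune markers summed to 0 to 609.8 FPKM per FGO and 0 to 128.8 per MII oocyte (8 measured, with Hbb-b1, Hbb-b2 and Cd52 at 0 in MII). Btg4 itself measured 3293 and 4774 FPKM in Het mRNA and 1754 and 2345 in KO mRNA (log2 change -0.97, SE 0.35, adjusted p = 0.0889 by limma). Its footprints measured 6134, 6346 and 7009 FPKM in Het and 907, 971 and 1148 in KO (-2.69, SE 0.23, adjusted p = 0.00654 by limma), so the KO libraries still list Btg4 in both assays.

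In FGO, footprints on the synthetases were spread unevenly over amino acids. Levels are FPKM, a fragment count scaled by transcript length and by library size, so they are per length and relative to each library's own total. Sars, the seryl enzyme, had 3.83 FPKM in the lowest FGO, a median of 36.7 and 104.6 in the highest, with a mean of 38.0 ± 25.7 (SD, n = 18). Qars, the glutaminyl enzyme, had 3.81, 27.5 and 106.8, with a mean of 34.8 ± 29.3 (SD, n = 18). Fars2, the mitochondrial phenylalanyl enzyme, had 4.44, 24.6 and 100.9, with a mean of 33.8 ± 29.6 (SD, n = 18). Nars, the asparaginyl enzyme, had 3.61, 13.1 and 130.5, and a mean of 24.2 ± 29.9 (SD, n = 18). These 4 were above 0 in all 18 FGO, and neighbours in this order differed by less than the spread between oocytes. Sars, Qars, Nars and Dars together made up 58.5% of the summed mean level of the 17 cytosolic enzymes. Fars2 alone made up 71.2% of that of the 17 mitochondrial enzymes. Per FGO, a median of 16 of the 17 cytosolic members was above 0 (12 to 17) against 8 of the 17 mitochondrial ones (4 to 11). Summed levels were 37.6 to 511.7 FPKM for the cytosolic set (median 159.5) and 7.21 to 133.5 for the mitochondrial set (median 35.7). The FPKM of all genes also summed unequally, from 76465 in FGO 13 to 677515 in FGO 2. The lowest cytosolic sum was that of FGO 13, and the highest that of FGO 6, where all genes summed to 508671. The part of these totals in the spread between oocytes and stages was not tested.

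In MII oocytes other members led. Tars, the threonyl enzyme, Iars, Wars and Rars were the top 4 cytosolic members and made up 54.2% of that set. Fars2 remained the highest mitochondrial member, with 60.2% of its set, and had the highest mean of all 34, at 20.5 ± 17.4 FPKM (SD, n = 20). That lead rested on MII oocytes 2 and 4, where Fars2 had 73.8 and 46.0 FPKM, against at most 36.0 in the other 18. Without MII oocytes 2 and 4 its mean was 16.2 FPKM, below that of Tars at 17.6. Rars, at 7.91, then stood below Lars at 9.06 and Nars at 8.34. The summed cytosolic level was 33.3 to 206.4 FPKM per MII oocyte (median 108.3) and the mitochondrial one 4.92 to 97.5 (median 27.6), ranges that overlap those of FGO. The highest cytosolic sum among MII oocytes was that of MII oocyte 2. The lowest was that of MII oocyte 14, where all genes summed to 144559 FPKM, against 598538 in MII oocyte 11. A median of 9 cytosolic members (5 to 16) and 3 mitochondrial members (1 to 8) was above 0 per MII oocyte, at the lower depth. Across the 34 members, mean levels in FGO and MII had a Spearman rho of 0.78, beside 0.75 over all 20756 genes. These points share annotation and gene length, and many are at or near 0.

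From FGO to MII, 21 of the 34 members had a mean of at least 1 FPKM over both stage means and could be compared. Each stage counts as 1 sample, since the labels name no animals, so the ratios have no test and 2-fold is only a rule of size on log2(mean FPKM + 1). Past 2-fold, 4 members were higher in MII and 7 lower, where 27.8% of all genes compared were higher and 31.6% lower. With all oocytes kept, the 7 lower members were cytosolic (Sars, Qars, Gars, Cars, Mars, Nars and Aars, of 15 cytosolic members compared), which did not hold without MII oocytes 2 and 4. The median log2 ratio was -0.96 for those 15 and -0.19 for the 6 mitochondrial members compared, beside -0.18 for all genes. Mars, Tars2 and Wars2 reached the minimum through 1 stage only. The remaining 13 members were under it, among them 11 of the 17 mitochondrial enzymes.

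**Figure D1:**
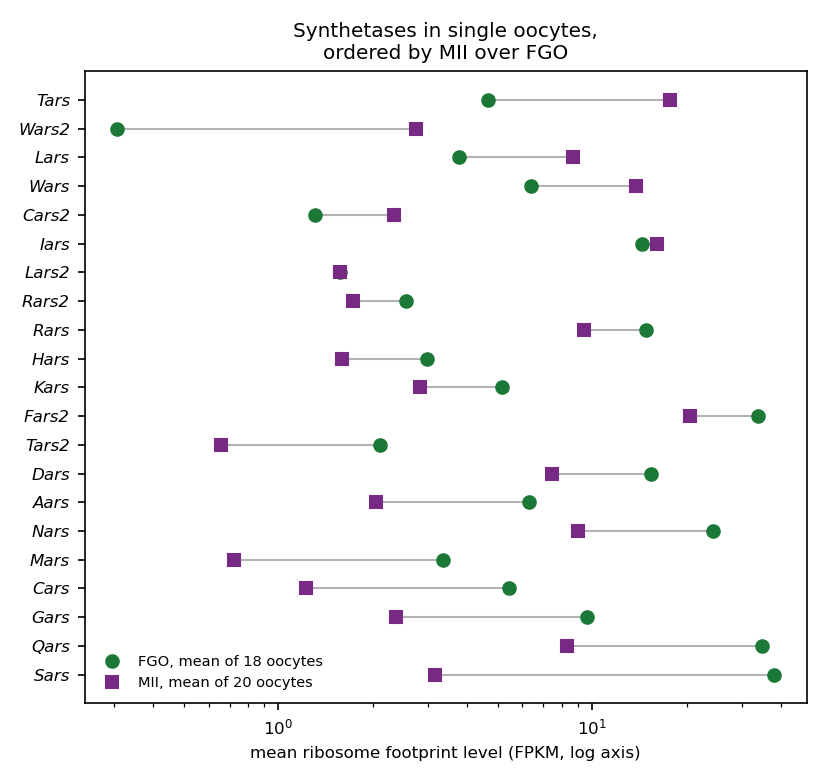
Mean footprint level (FPKM, log axis) of the 21 synthetases compared between stages, circles for 18 FGO and squares for 20 MII oocytes, ordered by the log2 ratio of MII over FGO. Tars is at the top with 1.73, Sars at the bottom with -3.23, and the 2 symbols of Lars2 coincide.

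Sars showed the lowest ratio. In MII oocytes it was at 0 in the lowest, at a median of 0 and at 28.4 FPKM in the highest, with a mean of 3.16 ± 6.64 (SD, n = 20), which is 12.0-fold below the FGO mean. Its highest MII value belonged to MII oocyte 2, and without MII oocytes 2 and 4 the log2 ratio moved from -3.23 to -4.03. It was above 0 in 7 of 20 MII oocytes, and in 3.61% of all MII and FGO pairs the MII oocyte had the higher value. Qars was at 0 to 33.7 FPKM in MII, with a median of 6.39 and a mean of 8.31 ± 8.83 (SD, n = 20), a log2 ratio of -1.94. Unlike Sars it was above 0 in 17 of 20 MII oocytes, and its 2 highest values were those of MII oocytes 2 and 4 (33.7 and 30.1, against 10.7 at most in the others). Gars, the glycyl enzyme of both compartments, had 1.53, 5.56 and 29.4 FPKM in the lowest, median and highest FGO and 0, 0 and 13.8 in MII, a log2 ratio of -1.65. Cars, the cysteinyl enzyme, had 0, 2.53 and 26.8 in FGO and 0, 0 and 6.01 in MII, a log2 ratio of -1.53. Gars was above 0 in 7 MII oocytes and Cars in 6. For Nars the ratio was -1.33, and without FGO oocyte 6 it was -0.92, inside 2-fold.

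Tars had the highest ratio. Its footprints were at 0, 2.73 and 16.9 FPKM in the lowest, median and highest FGO and at 0, 15.7 and 44.6 in MII, with means of 4.67 ± 4.88 (SD, n = 18) and 17.8 ± 12.9 (SD, n = 20), a log2 ratio of 1.73. It was above 0 in 19 of 20 MII oocytes, and the MII oocyte was higher in 84.4% of pairs, though the ranges overlapped. Wars2, the mitochondrial tryptophanyl enzyme, had a mean of 0.307 ± 0.778 (SD, n = 18) in FGO and 2.74 ± 4.47 (SD, n = 20) in MII, a log2 ratio of 1.52. It was above 0 in 3 FGO and 7 MII oocytes, so its median was 0 in both stages. Lars, the leucyl enzyme, had 0, 2.37 and 12.4 FPKM in FGO and 1.22, 4.81 and 24.7 in MII. Wars, the cytosolic tryptophanyl enzyme, had 0, 5.27 and 26.3 in FGO and 3.30, 11.7 and 41.5 in MII. Lars and Wars were above 0 in all 20 MII oocytes and stood just past 2-fold, at 1.02 and 1.00, and leaving out single oocytes gave 0.89 to 1.19 and 0.85 to 1.25. Just inside 2-fold were Dars at -0.96 and Tars2 at -0.91. The Dars ratio depended on single high oocytes in each stage. Its highest values were 112.4 FPKM in FGO, where the mean was 15.4, and 120.0 in MII oocyte 15. Without MII oocyte 15 the ratio was -2.70, and leaving out single oocytes of either stage gave -2.70 to -0.34.

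**Figure D2:**
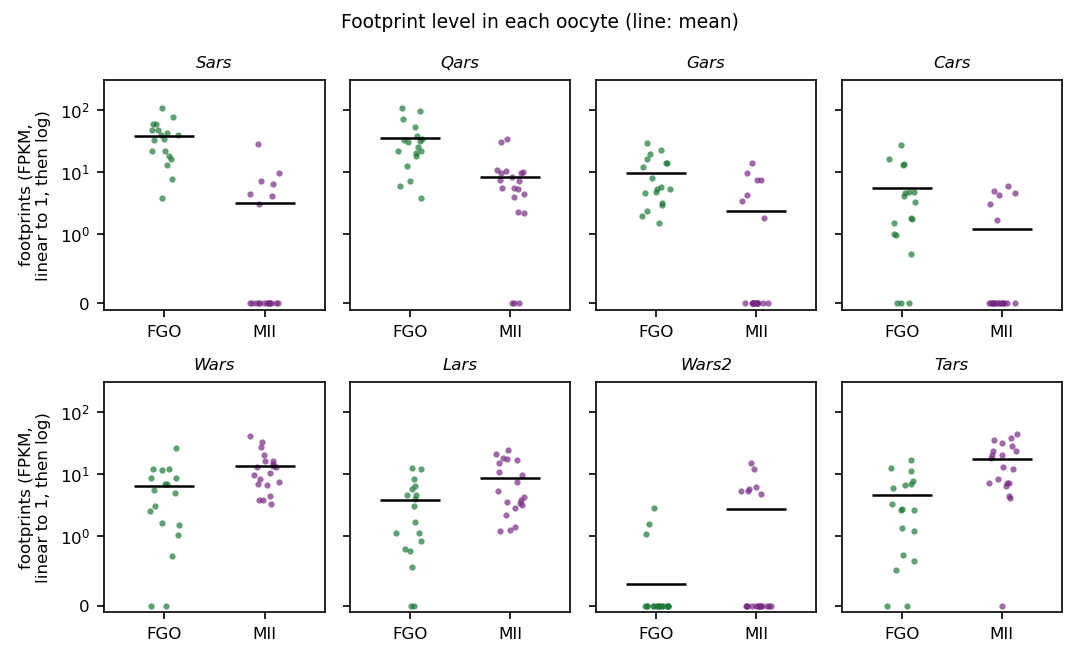
Footprint level in each oocyte (FPKM, linear to 1 and log above) for the 4 synthetases with the lowest and the 4 with the highest ratio of MII over FGO, with the mean as a line. The Sars points of 13 MII oocytes lie at 0, and the Tars points of 19 of 20 MII oocytes lie above it.

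Without MII oocytes 2 and 4 the cytosolic median was -0.95 and the mitochondrial median -0.48, with 4 members higher and 9 lower. The lower members then included the mitochondrial Fars2 (-1.02) and Tars2 (-1.04), so that the lower members were no longer all cytosolic. With every oocyte that listed a hemoglobin gene left out (9 FGO and 19 MII oocytes remained) the medians were -0.80 and -0.04, with 4 higher and 5 lower. The share of follicle cell RNA in these ratios was not tested.

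In MII oocytes labelled Btg4 KO, mRNA of several synthetases rose, led by the arginyl and glutaminyl enzymes. Of the 34 members, 23 passed the minimum of a mean of 1 FPKM, and 7 rose and 0 fell (limma on log2(FPKM + 1), adjusted p below 0.05 over all genes tested). Among all genes 18.9% rose and 0.62% fell. At an unadjusted p under 0.05, 10 members were higher and 1 lower, a count not made over all genes and so without a share to set beside it. Of the 7 that rose, Rars, Qars, Dars and Iars belong to the multi-synthetase complex, whose 7 members within the name pattern were all tested and had a median log2 change of 1.39 (1.28 for 8 with Eprs). Of the 8 free cytosolic members tested Aars rose, with a median of 0.33 for the 8. Of the 8 mitochondrial members tested Rars2 and Yars2 rose, with a median of 0.54. The median over all genes was 0.14. Mars, Yars2 and Cars2 reached the minimum through the KO libraries only. FPKM are shares of a library, and in these libraries fewer cells with a transcript and less RNA per cell cannot be told apart. Follicle cell markers summed to 356.8 and 441.0 FPKM in Het mRNA and 267.6 and 309.5 in KO mRNA, with Gja1, Amh, Foxl2 and Krt18 at 0 in both, and blood and immune markers to at most 16.4. Most of the follicle cell sum was Serpine2, with means of 384.6 in Het and 278.1 in KO. Krt8, another of these markers, was called higher in KO, from 0.83 and 0.522 to 2.23 and 2.38 FPKM (log2 change 0.98, adjusted p = 0.0497), a call kept in 1 of 9 alternatives. Krt8 also reached the minimum through the KO libraries only. Of the 11 oocyte markers, Zp1, Zp2 and Zp3 of the egg coat and the transcription factors Nobox and Figla rose in KO mRNA, by 1.6 (Zp1) to 3.53 (Figla) on the log2 scale, and 0 fell. The part of these markers in the synthetase changes was not tested.

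Rars mRNA measured 9.69 and 11.9 FPKM in Het and 108.1 and 117.2 in KO, means of 10.8 ± 1.6 and 112.6 ± 6.45 (SD, n = 2 each). This is 10.4-fold, and the log2 change was 3.27 (SE 0.31, adjusted p = 0.000573). Qars mRNA measured 10.2 and 8.97 FPKM in Het and 99.0 and 69.4 in KO (2.99, SE 0.33, adjusted p = 0.000938). Rars2, the mitochondrial arginyl enzyme, went from 0.95 and 2.07 to 15.3 and 20.8 FPKM (2.95, SE 0.39, adjusted p = 0.00203). Both arginyl enzymes, cytosolic and mitochondrial, thus rose, and in all 3 genes the Het and KO libraries did not overlap. With n = 2 each such an order says little by itself, and it was not counted over all genes. Dars, the aspartyl enzyme, measured 11.9 and 13.3 FPKM in Het and 47.0 and 44.1 in KO (1.78, SE 0.31, adjusted p = 0.00599). Rars, Qars, Rars2 and Dars passed the threshold under all 10 alternative settings, with adjusted p of at most 0.0403.

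The other 3 calls depended on the setting. Iars, the isoleucyl enzyme, measured 20.9 and 23.3 FPKM in Het and 62.6 and 56.3 in KO (1.39, SE 0.30, adjusted p = 0.0144). Yars2, the mitochondrial tyrosyl enzyme, measured 1.23 and 0.69 in Het and 5.69 and 4.08 in KO (1.59, SE 0.34, adjusted p = 0.0144). Aars, the alanyl enzyme, measured 1.32 and 1.69 in Het and 6.69 and 3.84 in KO (1.29, SE 0.37, adjusted p = 0.0422). Without KO library 1 these calls were lost (adjusted p of 0.0794, 0.0526 and 0.259 in the order above), Iars was also lost without KO library 2 (0.0585) and Aars without Het library 1 (0.114). Each such fit leaves 1 library in a group, assumed to vary like the other group, and the log2 change stayed at 1.31 to 1.47 for Iars, 1.39 to 1.79 for Yars2 and 0.95 to 1.62 for Aars. With all libraries kept and no filter on low values the 3 calls were lost too (0.0520, 0.0907 and 0.148), as were Iars and Aars with median scaling (0.0617 and 0.0800) and Aars with quantile normalization (0.0782). The complex members that did not pass were Mars at 1.18 (adjusted p = 0.0552), Kars at -0.08 (0.879) and Lars at -0.24 (0.653), which are 3 of the 7, and Eprs, outside the name pattern, at -0.70 (0.157). Mars passed without Het library 1 (0.0396) or KO library 2 (0.0091).

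The division into rises and falls depended on scaling. When libraries were scaled to one median, the median of all genes shifted by -0.41 and 54.8% of all calls were rises, against 96.8% as deposited. On that scale 5 members rose (Dars, Qars, Rars, Rars2 and Yars2) and 1 fell, Hars, the histidyl enzyme. Hars mRNA was 18.5 and 17.2 FPKM in Het and 9.31 and 9.24 in KO, a log2 change of -0.88 (SE 0.33, adjusted p = 0.101) as deposited and -1.29 (adjusted p = 0.0333) after median scaling.

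In footprints, Nars, which did not pass in mRNA, and Rars, which did, were the members that rose in Btg4 KO. Of the 34, 22 passed the minimum, and 2 rose and 0 fell (limma, as for mRNA), where 3.21% of all genes rose and 0.328% fell. At an unadjusted p under 0.05, 3 members were higher and 0 lower, again without a share of all genes at that threshold. The median log2 change was 0.19 for the 22 and 0.27 for all genes. Hars, Iars2, Nars2, Rars2 and Sars2 reached the minimum through 1 genotype only. Nars footprints measured 24.8, 28.6 and 11.0 FPKM in Het and 93.8, 177.2 and 120.8 in KO, means of 21.4 ± 9.24 and 130.6 ± 42.6 (SD, n = 3 each). This is 6.09-fold, with a log2 change of 2.61 (SE 0.50, adjusted p = 0.0437). Rars footprints measured 31.9, 18.1 and 12.8 FPKM in Het and 109.8, 128.0 and 77.6 in KO (2.34, SE 0.47, adjusted p = 0.0487). In both genes every KO library lay above every Het library, an order not counted over all genes. Both calls sit close to the threshold: without any 1 library, adjusted p for Nars was 0.0610 to 0.163, and Rars passed only without Het library 1 (0.0442) and otherwise had 0.105 to 0.171. The log2 change in these fits was 2.2 to 2.86 for Nars and 2.05 to 2.68 for Rars. With any 1 KO library left out no gene of the table passed, and after median scaling, which shifted the median of all genes by -0.44, adjusted p was 0.113 for Nars and 0.116 for Rars. With a pseudocount of 0.1 it was 0.0521 and 0.0558, with no filter 0.0590 and 0.0670, and with quantile normalization 0.0637 and 0.0710. Follicle cell markers summed to 239.7 to 407.4 FPKM in Het footprints and 403.4 to 553.5 in KO, with Inha, Amh, Foxl2, Cyp11a1 and Fshr among those at 0 in both. Serpine2 had means of 273.0 and 439.1 of these sums. Of the 11 oocyte markers Bmp15 and Dazl rose in footprints (2.68 and 2.17 on the log2 scale), each call kept in 6 of 12 alternatives, and 0 fell. The part of these markers in the result was not tested.

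Dars and Tars footprints were also higher in every KO library than in every Het library without passing the test. How many of all genes show this order was not counted, so it is given as a description only. Dars measured 1.94, 7.61 and 4.98 FPKM in Het and 14.0, 12.4 and 45.2 in KO (1.98, SE 0.73, adjusted p = 0.215). Tars measured 76.3, 132.3 and 39.6 in Het and 136.0, 248.2 and 154.3 in KO (1.22, SE 0.52, adjusted p = 0.276). Aars showed the reverse order, with 5.59, 12.8 and 4.80 in Het and 3.38, 1.79 and 2.29 in KO (-1.24, SE 0.64, adjusted p = 0.364), although its mRNA rose. So did Vars2, which was under the minimum for the test, with 0.423, 4.16 and 0.544 in Het and 0, 0 and 0.26 in KO. Of the 2 mRNA rises in mitochondrial members, Rars2 had footprints of at most 4.21 FPKM in any KO library and Yars2 of 3.76, 0 and 0.

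**Figure D3:**
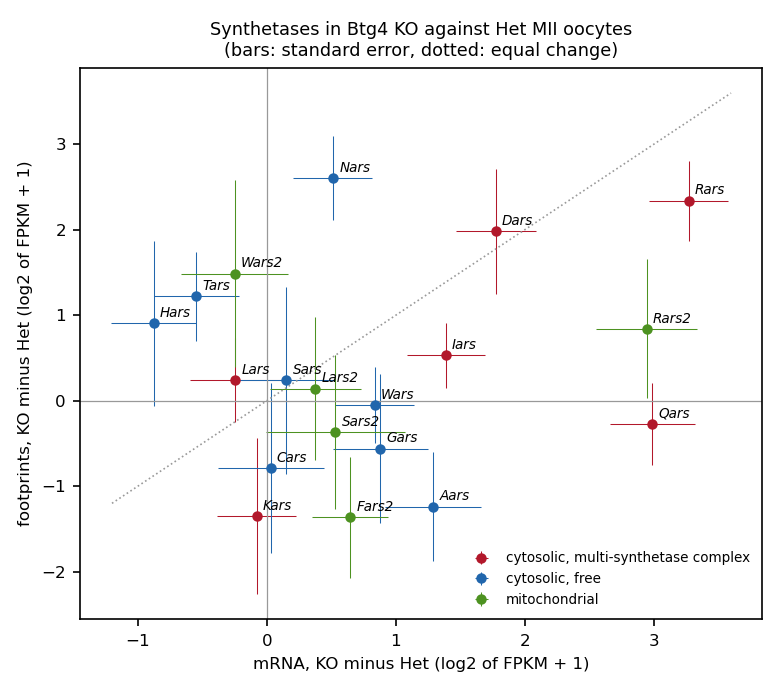
Log2 change of mRNA (x) and of footprints (y), KO minus Het on log2(FPKM + 1), for the 19 synthetases tested in both, with standard errors and colours for complex, free cytosolic and mitochondrial members. Rars lies at 3.27 and 2.34 near the dotted line of equal change, Qars at 2.99 and -0.27 far below it, and Nars at 0.51 and 2.61 above it.

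Footprint efficiency, the change in footprints relative to the change in mRNA, was examined through a genotype-by-assay interaction term for the 19 members with at least 1 FPKM in both. Qars fell and 0 rose, where 0.447% of all genes fell and 0.853% rose. At an unadjusted p under 0.05 there were 2 members lower and 2 higher, again without a share of all genes at that threshold. While Qars mRNA went up 8.79-fold, its footprints measured 16.6, 17.5 and 10.7 FPKM in Het and 11.8, 9.88 and 14.6 in KO, groups that overlap (-0.27, SE 0.48, adjusted p = 0.813). The efficiency of Qars changed by -3.26 (SE 0.59, adjusted p = 0.0421). With the replicate number as a block, adjusted p was 0.0668. Without 1 of the 4 mRNA libraries it was 0.187 to 0.225, where no gene of the table passed, and without 1 of the 3 KO footprint libraries 0.0661 to 0.0769. For Rars the same value was -0.93 (SE 0.63, adjusted p = 0.588). Nars had the highest efficiency change of the members, 2.09 (SE 0.67, adjusted p = 0.189), then Hars with 1.78 (SE 1.24, adjusted p = 0.602) and Tars with 1.77 (SE 0.73, adjusted p = 0.325). Hars reached the minimum in footprints through the KO libraries only, at 2.85, 0 and 0 FPKM in Het and 3.44, 0 and 4.68 in KO.

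**Figure D4:**
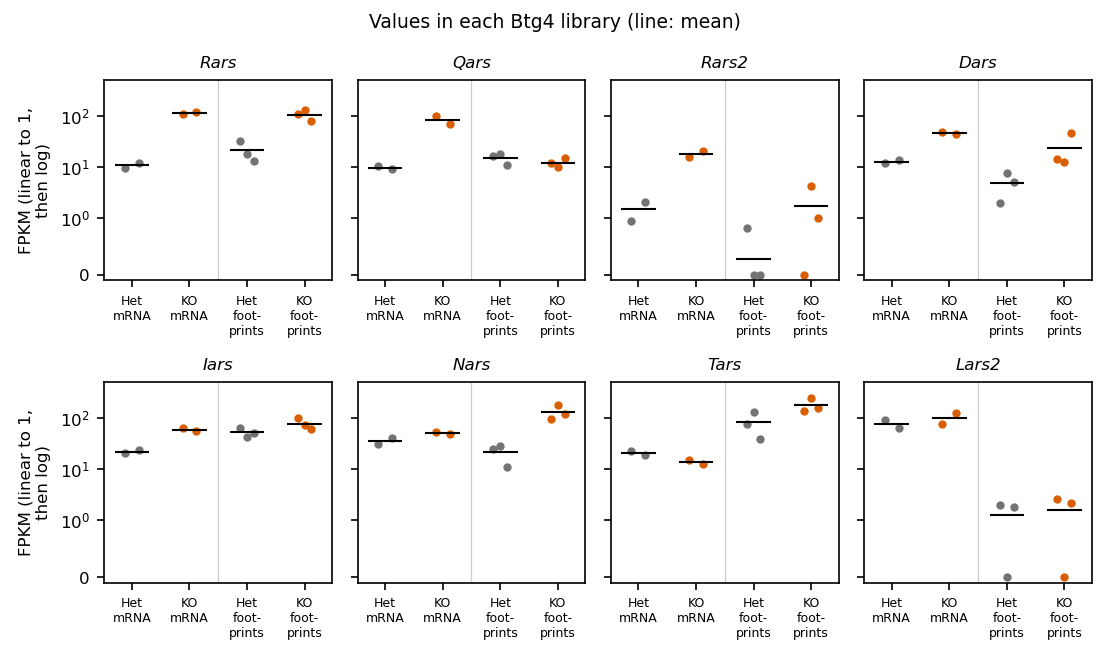
FPKM in each Btg4 library (linear to 1, log above, line at the mean) for 8 synthetases, mRNA left and footprints right of the grey line in each panel. Rars is higher in KO in both assays, Qars in mRNA only by the test of each, and Lars2 has mRNA of 63.2 to 124.4 FPKM beside footprints of at most 2.59.

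The level of footprints for a given mRNA level differed widely between members, a comparison added after the values were seen. In Het oocytes the log2 ratio of (footprints + 1) over (mRNA + 1) was highest for Tars (1.96), Aars (1.80) and Lars (1.62). It was lowest for Lars2, the mitochondrial leucyl enzyme (-5.09), and Hars (-3.27). Lars2 mRNA was the highest of all 34 members in Het, at 90.2 and 63.2 FPKM, and measured 77.8 and 124.4 in KO. Its footprints were 2.01, 0 and 1.84 FPKM in Het and 2.59, 0 and 2.2 in KO, and in single oocytes its means were 1.57 ± 2.48 (SD, n = 18) in FGO and 1.57 ± 2.74 (SD, n = 20) in MII. Lars2 thus had footprints of at most 2.59 FPKM in any Btg4 library beside mRNA of at least 63.2 FPKM. Across the 34 members Het mRNA and Het footprints had a Spearman rho of 0.75, beside 0.80 over all genes. Across the 21 members compared in single oocytes, the ratio of MII over FGO and the mRNA change in KO had a rho of -0.32, beside -0.57 over 7269 genes. Qars, second lowest in the first measure, was second highest in the mRNA change, while Sars, the lowest, had an mRNA change of 0.15 (SE 0.38).

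Among partner genes outside the name pattern, the scaffold component AIMP3, encoded by Eef1e1, moved most. Its mRNA measured 33.4 and 49.2 FPKM in Het and 319.4 and 447.7 in KO (3.19, SE 0.33, adjusted p = 0.000873). Its footprints measured 0, 0 and 20.2 in Het and 256.1, 503.1 and 420.3 in KO (adjusted p = 0.0299, and 0.0175 to 0.146 over the alternatives, 5 of 12 below 0.05). In single oocytes the stages hardly differed, at 2.79 ± 5.57 (SD, n = 18) and 2.76 ± 8.33 (SD, n = 20) FPKM. Of the 7 synthetase and scaffold genes outside the pattern that were tested in mRNA, Eef1e1 rose and 0 fell, where 18.9% of all genes rose and 0.62% fell. Aimp1 and Aimp2 had mRNA changes of 0.64 and 0.82 (adjusted p = 0.238 and 0.136). Eprs, the fused glutamyl and prolyl enzyme of the complex, had mRNA of 37.9 ± 4.45 and 22.9 ± 3.09 FPKM (SD, n = 2 each). Its footprints went the other way, from 0.58 ± 1.01 in Het to 8.32 ± 5.07 in KO (2.61, SE 0.75, adjusted p = 0.128 by limma). They reached the minimum through the KO libraries only. The efficiency change of Eprs was 3.31 (SE 0.90, adjusted p = 0.133 by limma), so neither passed. Farsa and Farsb are the subunits of the cytosolic phenylalanyl enzyme. Farsa had 2.28 ± 2.35 FPKM (SD, n = 18) in FGO and 14.3 ± 11.3 (SD, n = 20) in MII, a log2 ratio of 2.23. Farsb had 42.5 ± 35.5 and 32.9 ± 23.7 (SD), a log2 ratio of -0.36, inside 2-fold.

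Of the 7 mitochondrial tRNA charging and modification genes tested in mRNA, Mto1 and Trit1, which modify tRNA, rose and 0 fell, which is near the share of all genes (18.9% and 0.62%). Mto1 went from 2.12 and 2.49 to 10.5 and 9.49 FPKM, and Trit1 from 4.49 and 3.52 to 16.7 and 15.0. Of 10 proofreading and selenocysteine genes 3 rose and 1 fell, beside the same shares of 18.9% and 0.62%. Dtd1, which removes D-amino acids from tRNA, went from 1.21 and 1.12 to 6.41 and 7.44 FPKM in mRNA and from 0 in all 3 Het footprint libraries to 10.7, 7.58 and 14.6 (adjusted p = 0.0066 and 0.0315). The footprint call of Dtd1 was kept in 2 of 12 alternatives, with adjusted p of up to 0.142. In footprints Dtd1 reached the minimum through the KO libraries only. Aarsd1, related to the alanyl enzyme's editing domain, went from 0.799 and 0.33 to 5.09 and 6.70 FPKM in mRNA (2.15 on the log2 scale). There it reached the minimum through the KO libraries only. Its footprints, under the minimum for the test, were 1.22, 0 and 0 FPKM in Het and 0 in all 3 KO libraries. Pstk, a kinase of the selenocysteine route, went from 2.97 and 1.51 to 7.35 and 13.1 in mRNA (1.78). Its footprints went the other way without passing, from 3.70, 0 and 9.52 FPKM in Het to 0 in all 3 KO libraries (-1.88, SE 0.96, adjusted p = 0.360 by limma). Sephs2, which makes the selenium donor, measured 157.5 and 188.2 FPKM in Het and 66.2 and 96.9 in KO and fell by 1.09 (adjusted p = 0.0442). Its value without single libraries and under other scalings passed in 6 of 10 settings.

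Tail lengths, in nucleotides (nt) per gene as deposited with 0 for no value, were given for 22 of the 33 synthetases named there in FGO, 66.7% beside 30.8% of all genes in that table. Their median was 57.8 nt, beside 54.1 nt over all 6353 genes with a value. The 14 cytosolic members had a median of 59.6 nt (37.3 to 72.9) and the 8 mitochondrial ones 47.2 nt (29.4 to 99.6), ranges that overlap. Gars had the longest cytosolic tail, at 72.9 nt, and Rars2 the shortest of all, at 29.4 nt. Each of these libraries is single, so these differences have no replicate check. Across the 22, tail length and FGO footprint level had a Spearman rho of 0.25, beside 0.26 over 6229 genes. Across the 14 cytosolic members alone it was -0.002. Tail length and the ratio of MII over FGO had a rho of -0.01 across 16 members, beside -0.37 over 5459 genes.

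In MII few synthetases had a value: 1 in wild type, 0 in Het, and 5 and 7 in the KO libraries, where 1.11%, 2.90%, 4.21% and 6.87% of all genes had one. A comparison of KO with Het could therefore not be made for any synthetase. The members with a value in both KO libraries were Lars2, Qars, Iars and Fars2, named after their values were seen. Lars2 had 184.6 and 199.6 nt in KO against 99.6 nt in FGO and 95.4 nt in wild-type MII, and its KO mean was the second longest of 636 genes with a value in both KO libraries (median 42.6 nt). The others were short: Qars had 42.6 and 19.2 nt (57.9 in FGO), Iars 40.4 and 32.5 nt (63.4 in FGO), and Fars2 21.9 and 25.8 nt with no FGO value. The KO mean minus FGO was -27.0 nt for Qars, -26.9 nt for Iars and 92.5 nt for Lars2, beside a median of -15.4 nt over 626 genes. The 2 KO values of Qars differed by more than those of Iars (SD 16.5 against 5.59 nt). Qars and Iars, complex members whose mRNA rose in KO, had shorter tails in both KO libraries than in FGO. The KO MII and wild-type FGO libraries differ in both stage and genotype, which cannot be told apart here. Rars, the complex member with the largest mRNA rise, had 27 nt in KO library 2 and no value in KO library 1, against 61.4 nt in FGO. In the authors' deposited table of merged libraries Kars had 63.99 nt in wild type and Het merged and 32.77 nt in KO merged, while Lars2 had 99.54 and 195.04 nt.

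**Figure D5:**
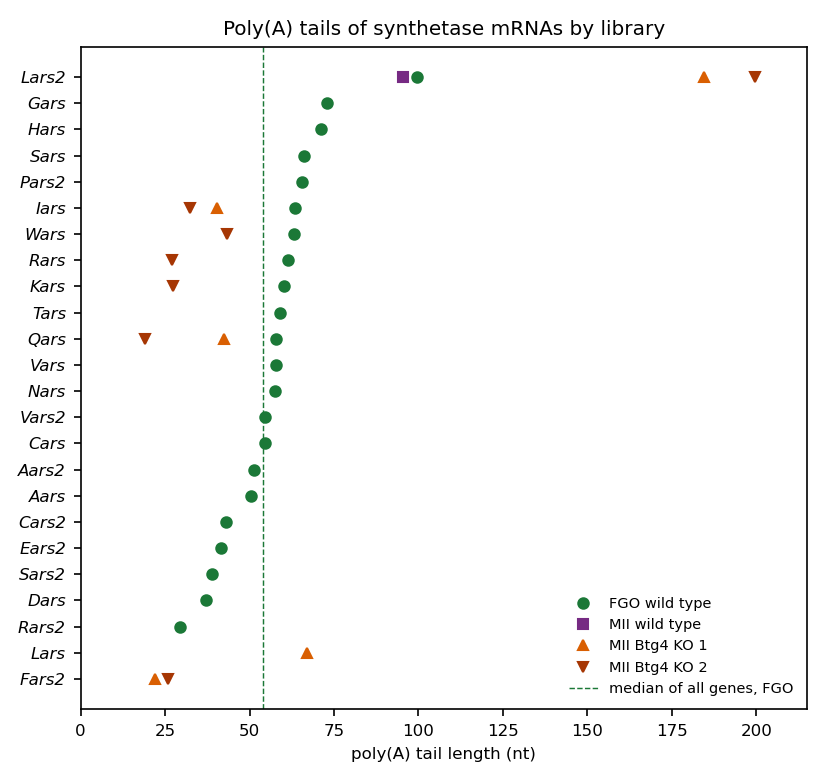
Poly(A) tail length (nt) of the 24 synthetases with a value in at least 1 library, ordered by FGO length, with the FGO median of all genes as a dashed line. Lars2 stands alone at 184.6 and 199.6 nt in the KO libraries, while the other KO values lie between 19.2 and 66.9 nt.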

How the data were processed

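Ribosome footprints, polyA mRNA (Smart-seq2) and tail lengths (full-length cDNA on PacBio) were used from 53 of 105 labelled samples. The other 52 were not analysed here. The authors deposited FPKM for footprints and mRNA. Tail lengths were deposited in nucleotides, 1 value for each gene and library. Alignment and quantification tools listed in the submitters' processing notes, without roles, include STAR 2.5.3a, Cufflinks 2.2.1 and Bowtie2 2.2.2. The tail caller was not given in the sources used here. Exact repeats in the Btg4 values (231) were dropped. Footprint depth was read from the most common ratio between libraries in the values of the same gene. As a separate check, whole multiples of a gene's lowest value (tolerance 0.03, below 12-fold) held for 77.6% of single-oocyte and 43.5% of Btg4 footprint values. No count model was therefore used, and the mRNA and tail depth is unknown.

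KO and Het libraries were set against each other with limma 3.58.1 (R 4.3.3, eBayes with trend) on log2(FPKM + 1), a scale that understates the change of low genes. Genes needed a mean of 1 FPKM, the fit ran over all genes, and Benjamini-Hochberg adjusted p, two-sided, is given throughout. Since no animals are named, p-values reflect only the spread among these libraries, possibly technical. In footprints the deviations of same-numbered libraries correlated at 0.255, 0.422 and 0.162. The fits reported still left the libraries unpaired, and the replicate number was a block only in an alternative setting. Code was tested on simulated data. The first simulation changed genes above a minimum level, with no upper limit, and held the spread at or above its median. Changes were mostly recovered in mRNA, but few or none in footprints or efficiency. A second, added afterwards with a higher minimum level, larger changes and no such floor on the spread, recovered most in each assay. A non-call in footprints or efficiency therefore does not show that a gene did not change.

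The members, the gene lists and the alternatives were chosen with earlier results of these data known. Named genes are the members called, the 4 highest and 4 lowest stage ratios, the 4 highest FGO levels, and called genes of the pathway lists (at most 5 each), with per-sample values. Called marker genes of oocytes and follicle cells are given by their changes. Other steps ran in Python 3.11.15 with pandas 2.3.3.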

Additional observations from a re-analysis of the deposited data

Results flagged for a closer look

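The footprint efficiency of Qars in Btg4 KO against Het MII oocytes differed between the assays: its mRNA change was 2.99 and its footprint change -0.27 on the log2 scale, and the interaction of genotype and assay was -3.26 (SE 0.59, adjusted p = 0.0421 by limma). All 3 KO footprint libraries of Qars stood between 9.88 and 14.6 FPKM, within or near the Het range of 10.7 to 17.5, while both KO mRNA libraries stood above both Het ones. Over the alternatives the adjusted p was 0.03 to 0.225 and passed in 5 of 13, and the log2 value was -3.51 to -3.00.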

How the results depend on the processing

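Members called in KO mRNA numbered 7 as reported, 4 with no filter on low values, and 4 to 8 when 1 library was left out. With the replicate block 13 members were called, 11 higher and 2 lower (Hars and Tars), where calls over all genes went from 1677 higher and 55 lower to 3033 and 1553. The mRNA libraries offer only 2 pairs, whose deviations correlated at 0.627, so there the number is only shared. Members called in KO footprints numbered 2, and 0 with a pseudocount of 0.1, with no filter, with quantile normalization or with median scaling, and 0 to 1 when 1 library was left out. The replicate block kept both footprint calls. Members called in efficiency numbered 1, 0 with the replicate block within assay, and 0 to 1 when 1 library was left out, a setting added after seeing the data. Where leaving out 1 KO library or 1 mRNA library emptied the table of calls, fewer samples were fitted by construction. For the other settings the cause was not tested. In single oocytes 11 members stood past 2-fold, 2 with a pseudocount of 10, 13 with a pseudocount of 0.1, 12 with medians over oocytes, and 9 to 12 when 1 oocyte was left out. The cytosolic median ratio was -1.28 to -0.64 and the mitochondrial one -0.47 to -0.01 over the same left-out oocytes. No member's called direction reversed under any alternative run. Depth limits the low members most: in MII oocytes a mean near 1 FPKM rests on few reads in few oocytes.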

Other observations

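The amino acid response list (the kinase GCN2, the factor ATF4 and known targets, among which several synthetase genes are counted in other cells) was measured beside the synthetases. In Btg4 KO mRNA 2 of 10 genes tested rose and 0 fell, which is near the share of all genes (18.9% rose and 0.62% fell) and so is not a result about the list. Cebpb, a transcription factor, went from 1.21 and 1.2 to 9.77 and 9.45 FPKM (log2 change 2.27, SE 0.34, adjusted p = 0.0031 by limma), and Phgdh, of serine synthesis, from 1.03 and 0.39 to 3.48 and 3.35 (1.39, SE 0.33, adjusted p = 0.0201 by limma). Phgdh reached the minimum level through the KO libraries only. Atf4 mRNA had 24.9 ± 19.4 and 51.3 ± 14.8 FPKM (SD, n = 2 each) and did not pass (adjusted p = 0.15 by limma), and the median of the 10 was 0.45 beside 0.14 for all genes.

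In single oocytes members of the list lay on both sides. Slc7a11, a cystine transporter, had a mean of 11.9 ± 16.1 FPKM (SD, n = 18) in FGO and 152.2 ± 79.0 (SD, n = 20) in MII, and its partner chain Slc3a2 8.44 ± 6.78 and 90.9 ± 52.9. Eif2ak4, which encodes GCN2, had 3.97 ± 4.62 and 15.5 ± 9.85. Ddit3 and Sesn2 were lower in MII, at log2 ratios of -1.95 and -1.27. Of the 13 genes of the list compared, 4 were past 2-fold higher in MII and 3 lower, where 27.8% of all genes were higher and 31.6% lower. Their median was -0.26.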
